A study of Mus musculus with 23 samples.

Results

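The first hours of the hypothalamic response to celastrol were measured in db/db mice at 6 h after injection, in 3 celastrol arrays against 4 vehicle arrays, of 23 arrays in the whole study. The arrays were chosen by their labels alone, and 18702 genes were compared, each through a probe set that names a single gene, of 23492 probe sets in all. Every mouse of both groups was a male aged 8 weeks, carried the db allele of the leptin receptor gene on both chromosomes, and had eaten normal chow for 2 weeks. The celastrol group was injected intraperitoneally with celastrol in DMSO, at 250 µg/kg for the 6 h time, and the vehicle group with DMSO, for which the labels give 25 µl per day. Each array held total RNA of the dissected hypothalamus of what the labels call a biological replicate, and the sources used here do not say whether a replicate was a single animal. No mice with a working leptin receptor are among the 23 arrays, so the comparison describes animals that lack full leptin signalling, in RNA of whole tissue. Fewer cells of a type and less RNA per cell cannot be told apart in such samples.

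Celastrol is a plant triterpenoid known for lowering food intake and body weight in mice made obese by diet, an effect that is largely lost in mice without leptin or its receptor. In cultured cells it is known to activate heat shock factor 1, which switches on chaperone genes, and to inhibit the proteasome and NF-kB signalling. The db mutation changes the splicing of Lepr so that the long, signalling form of the receptor is not made while shorter forms remain. The comparison asks which hypothalamic transcripts differ within hours of the drug in animals where leptin itself cannot signal.

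Promoter windows of 3 genes are shown because they carry the recognition sequences of pathways that the gene lists below cover. Hspa1a, the inducible Hsp70 chaperone, and Chordc1, a cochaperone of Hsp90, belong to the heat shock list, and Sgk1, a kinase induced by glucocorticoids, to the glucocorticoid list. Each window runs from 250 bases before to 50 after a transcription start in RefSeq (build GRCm38.p6): chr17:34972107-34972406 on the minus strand for Hspa1a, chr9:18292017-18292316 on the plus strand for Chordc1, and chr10:21993640-21993939 on the plus strand for Sgk1. The Sgk1 window is 1 of 6 for that gene and 1 of 2 with a match, chosen after the matches were seen, while Hspa1a and Chordc1 have 1 window each. Capitals mark a heat shock element match (GAANNTTC or TTCNNGAA) in Hspa1a and Chordc1 and a glucocorticoid response element match (ACANNNTGT) in Sgk1. Each motif letter string equals its own reverse complement, so both strands are covered, and the 5 matches in Chordc1 overlap in part.
Hspa1a: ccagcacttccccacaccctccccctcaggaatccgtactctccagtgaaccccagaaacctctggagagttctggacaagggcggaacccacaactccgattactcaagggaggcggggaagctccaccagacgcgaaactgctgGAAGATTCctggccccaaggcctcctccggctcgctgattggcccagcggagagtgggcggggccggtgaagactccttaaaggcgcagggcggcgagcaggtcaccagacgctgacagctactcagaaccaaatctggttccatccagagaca
Chordc1: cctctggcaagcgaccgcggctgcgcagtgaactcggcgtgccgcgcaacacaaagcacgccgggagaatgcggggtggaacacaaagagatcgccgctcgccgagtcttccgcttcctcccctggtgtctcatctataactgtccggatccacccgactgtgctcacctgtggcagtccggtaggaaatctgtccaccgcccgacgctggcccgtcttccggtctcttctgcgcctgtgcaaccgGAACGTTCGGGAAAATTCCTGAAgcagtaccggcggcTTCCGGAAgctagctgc
Sgk1: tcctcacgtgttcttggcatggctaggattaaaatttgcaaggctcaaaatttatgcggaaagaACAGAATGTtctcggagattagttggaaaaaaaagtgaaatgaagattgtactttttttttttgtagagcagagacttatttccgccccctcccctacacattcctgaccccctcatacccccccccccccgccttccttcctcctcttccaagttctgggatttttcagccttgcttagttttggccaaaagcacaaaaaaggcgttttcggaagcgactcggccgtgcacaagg
A heat shock element match lay in a window of 12 of the 21 heat shock genes with a window (57.1%), against 4587 of all 27025 genes with a window (16.97%). A glucocorticoid response element match lay in a window of 4 of 19 glucocorticoid genes (21.1%), against 2135 of 27025 (7.9%). These shares count a gene with a match in any of its windows. There were 27 windows for the 21 heat shock genes, 29 for the 19 glucocorticoid genes and 32851 for all 27025. More windows per gene give more room for a match, and the shares are not adjusted for this. A match is a description of the letters and not a measured binding site. The levels of these genes at 6 h are given with their lists.

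Arrays were alike in their middle level, and 1 vehicle array stood apart. Median log2 expression over the 18702 genes was 8.65 ± 0.00877 (SD, n = 4) with vehicle and 8.63 ± 0.0322 (SD, n = 3) with celastrol. Vehicle replicate 3 differed from the mean of the other vehicle arrays by a median of 0.12 per gene in absolute log2 units, against 0.0724 to 0.0815 for the other vehicle arrays. It was the highest or lowest of the 4 by a wide gap (beyond Dixon's 95% limit) for 1145 genes (6.12%), against 141 to 166 genes (0.754% to 0.888%) for the others. Results are therefore given with and without that array. The celastrol arrays also had a smaller SD over genes: 1.87, 1.88 and 1.92, against 1.94, 1.92, 1.93 and 1.92 with vehicle. All 3 lay below all 4 vehicle arrays, a difference of -0.041 (exact permutation test over 35 splits, 2-sided p = 0.0286, the smallest possible, and 0.0571 adjusted over 2 measures). The difference was -0.040 without vehicle replicate 3, where 20 splits cannot give a p below 0.1. The tissue label was borne out by Pmch, melanin-concentrating hormone of the lateral hypothalamus, at 13.10, 12.90, 13.48 and 12.92 with vehicle and 12.99, 12.97 and 13.02 with celastrol. A pituitary signal varied within both groups. Prl, the prolactin gene of the pituitary, stood at 6.21, 11.28, 6.72 and 10.93 on vehicle arrays 1 to 4 and at 6.49, 7.37 and 8.601 on celastrol arrays 1 to 3.

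No gene passed the test at 6 h. The comparison called 0 of 18702 genes (0.0%) at a limma adjusted p under 0.05, while an unadjusted p under 0.05 was found for 2763 genes (14.8%). These were 1600 genes higher with celastrol (8.56%) and 1163 lower (6.22%). With vehicle replicate 3 left out limma again called 0 genes (0.0%), and 1857 genes (9.93%) had an unadjusted p under 0.05, of them 1090 higher (5.83%) and 767 lower (4.1%). Of these, 949 higher and 544 lower genes were shared by both counts. Single celastrol arrays weighed on these counts as well: the higher genes were 848 without celastrol replicate 2 and the lower genes 629 without celastrol replicate 1. The celastrol and vehicle arrays did not overlap for 1116 genes that were higher (5.97%) and 803 that were lower (4.29%). With 3 vehicle arrays these counts were 1422 (7.6%) and 1413 (7.56%). Leaving out an array can only keep or raise such a count, so the rise is not a stronger separation. The 95% interval of a difference, before adjustment over genes, reached 0.146 on the log2 scale to either side for the median gene. Smaller differences could not be resolved with these arrays. Larger ones also went uncalled, such as 0.59 for Cyp2d40, so the 0 calls do not exclude differences above 0.146. The lowest adjusted p, 0.117, was shared by 5 genes, of which Retsat was lower and Olfr5, Olfr1115, Slc12a3 and Upk3bl were higher. Leaving out a single array changed the calls in 3 cases: Upk3bl was called without vehicle replicate 1 (difference 0.511, adjusted p = 0.0218), Olfr5 and 4930471G03Rik without vehicle replicate 4 (0.535 and 0.444, both adjusted p = 0.0367), and Wdr88 without celastrol replicate 3 (0.455, adjusted p = 0.0342). Slc12a3, Upk3bl and Wdr88 are named here because of these values and fall outside the rule for named genes.

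The genes with the smallest p among those lower with celastrol were led by Retsat, which encodes retinol saturase, an enzyme that converts retinol to dihydroretinol. Retsat stood at 9.09, 8.999, 9.09 and 9.14 on vehicle arrays 1 to 4 and at 8.78, 8.68 and 8.80 on celastrol arrays 1 to 3. Every celastrol array lay below every vehicle array, and vehicle replicate 3 lay inside the vehicle range. The log2 difference was -0.33 ± 0.063 (SE), 1.26-fold lower (limma adjusted p = 0.117), and -0.32 without vehicle replicate 3 (adjusted p = 0.269). Tomm22, the central receptor of the mitochondrial outer membrane import complex, stood at 10.12, 9.95, 10.20 and 9.91 with vehicle and at 9.76, 9.78 and 9.71 with celastrol. The groups did not overlap, and the difference of -0.29 ± 0.066 (SE) (adjusted p = 0.156) became -0.24 without vehicle replicate 3. Suclg2, a subunit of the GTP-forming succinyl-CoA ligase of the citric acid cycle, stood at 8.86, 9.01, 9.26 and 8.98 against 8.66, 8.69 and 8.78. Vehicle replicate 3 was the highest of the 7 arrays for Suclg2, and the difference went from -0.31 (adjusted p = 0.156) to -0.24 without it. Cd59a, a membrane inhibitor of complement, had the values 10.43, 10.72, 10.93 and 10.80 with vehicle and 10.30, 10.39 and 10.27 with celastrol. Its difference of -0.40 ± 0.095 (SE) (adjusted p = 0.156) was -0.33 without vehicle replicate 3.

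A further 8 genes were named for their small p, so that their 2 groups lie apart is a description. Ccdc141, which encodes a coiled-coil protein, stood at 9.38, 9.48, 9.28 and 9.47 with vehicle and at 8.996, 9.19 and 9.26 with celastrol, with no overlap. Its difference was -0.25, and -0.29 without vehicle replicate 3 (adjusted p = 0.269, with Retsat and Guf1 among the lowest of that fit). Guf1, a GTPase of mitochondrial translation, stood at 10.37, 10.33, 10.38 and 10.41 against 10.17, 10.15 and 10.23, a difference of -0.19 in both fits. Lnpk, lunapark, which stabilises junctions of the endoplasmic reticulum, had differences of -0.21 and, without vehicle replicate 3, -0.19. Camk4, a calcium-dependent kinase that acts on transcription in neurons, had -0.19 and -0.21. Rnf185, a ubiquitin ligase of endoplasmic reticulum protein degradation, had -0.21 and -0.20. Rlf, a zinc finger protein, had -0.22 and -0.18, and Zdhhc21, a palmitoyltransferase, -0.23 and -0.18. Ugp2, which makes UDP-glucose for glycogen, had -0.26 and -0.19. The groups did not overlap for these 8 genes, against 4.29% of all genes that were lower with no overlap, and their adjusted p values lay at or above 0.148 with all arrays.

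Among genes higher with celastrol, Cyp2d40 had the largest difference of those named by the rule. It encodes a cytochrome P450 of the Cyp2d family, enzymes that oxidise drugs and other small molecules. Cyp2d40 stood at 7.52, 7.77, 7.77 and 7.83 on vehicle arrays 1 to 4 and at 8.42, 8.24 and 8.28 on celastrol arrays 1 to 3. The lowest celastrol array lay well above the highest vehicle array, with a log2 difference of 0.59 ± 0.124 (SE), 1.5-fold higher (adjusted p = 0.148), and of 0.61 without vehicle replicate 3. Tbxa2r, the thromboxane A2 receptor, stood at 7.87, 8.16, 7.98 and 8.09 against 8.40, 8.36 and 8.27. It did not overlap, with a difference of 0.31 ± 0.067 (SE) (adjusted p = 0.148) and 0.30 without vehicle replicate 3. Gpbar1, the cell surface receptor for bile acids, stood at 8.02, 7.94, 7.78 and 8.05 against 8.37, 8.37 and 8.07, with vehicle replicate 4 just under celastrol replicate 3. Its difference was 0.32 with all arrays and 0.26 without vehicle replicate 3. Chmp6, part of the ESCRT-III complex that sorts membrane proteins into endosomes, had differences of 0.22 and 0.18. Upk2, a bladder uroplakin, had 0.33 and 0.31, and Sprr4, a skin cornification protein, 0.33 and 0.30. Prrxl1, a homeobox factor of sensory neurons, had 0.27 in both fits. Vwa3b had 0.32 and 0.31, and 4930471G03Rik, a gene with a clone name only, 0.36 and 0.31. H1f1, a linker histone, and Thsd1, a thrombospondin-domain protein of endothelium, had 0.24 and 0.24 without vehicle replicate 3 and 0.20 and 0.20 with it. In the fit with all vehicle arrays no adjusted p of these genes lay below 0.148.

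**Figure D1:**
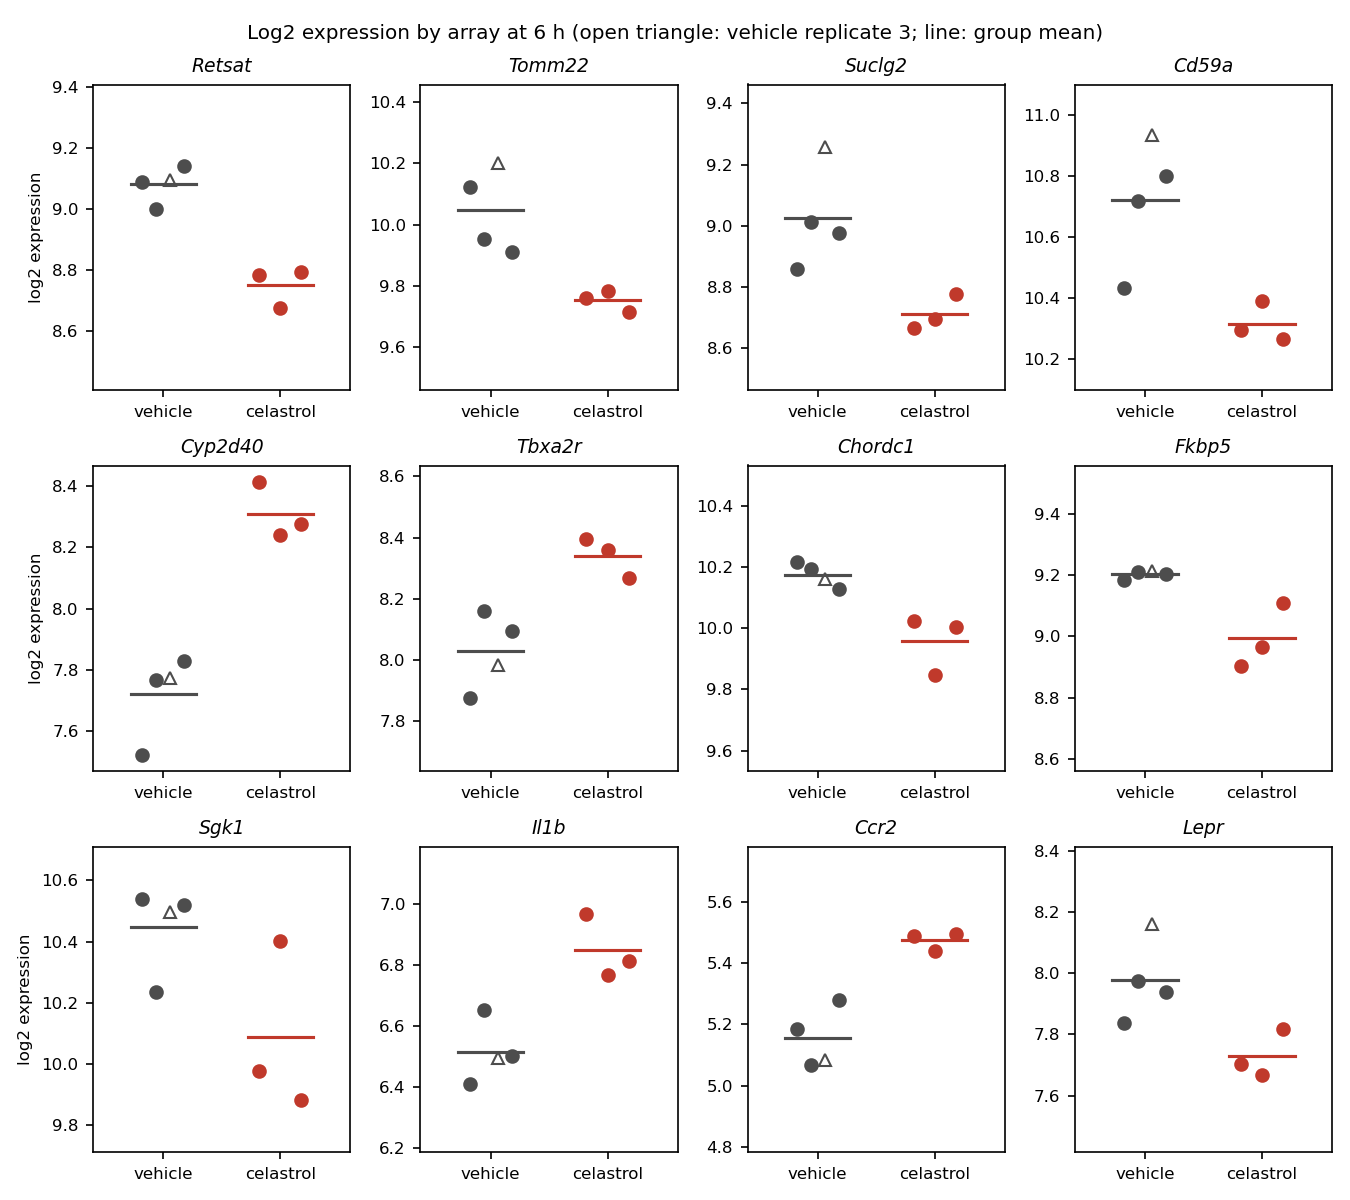
Log2 expression (vertical axis) of 12 genes on each of the 4 vehicle arrays (dark) and 3 celastrol arrays (red) at 6 h, with lines at the group means and an open triangle for vehicle replicate 3. The groups are apart for all but Sgk1, where celastrol replicate 2 lies among the vehicle arrays, and the triangle is the highest point for Tomm22, Suclg2, Cd59a and Lepr. Most of these genes were named for a small p, so the gaps are a description. Of all genes 5.97% were higher and 4.29% lower with no overlap, and 0 were called.

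Gene lists are set beside all genes and beside the highest tercile of genes by level, since bright genes tended to lie below 0. Of the 6234 genes of that tercile 65.2% lay below 0 with all arrays, with a median of -0.0292, and 77.7% without vehicle replicate 3, with a median of -0.0357. Of that tercile 8.69% were lower at an unadjusted p under 0.05 with all arrays and 6.13% without vehicle replicate 3, against 6.22% and 4.1% of all genes.

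The proteasome, the complex that degrades ubiquitin-tagged proteins, had a low median with all arrays and one near that of equally bright genes without vehicle replicate 3. Of 46 measured members, 42 had a difference below 0, against 47.2% of all genes, with a median of -0.092 against 0.00723 over all genes. At an unadjusted p under 0.05, 10 members were lower (21.7%) and 0 higher. Without vehicle replicate 3 the counts were 35 of 46 below 0 (76.1%), against 52.0% of all genes, and 2 at an unadjusted p under 0.05 (4.35%), with a median of -0.0417 against -0.00482 over all genes. The highest tercile by level holds 38 of the 46 members, and the list's values without that array lie at those of the tercile. With the SD over genes of each array as a covariate the list median was -0.051. That SD separates the groups at 6 h, so here and below a fit with it cannot tell the treatment from the SD. The alpha ring of the catalytic core had a median of -0.173, and -0.0422 without that array, and the beta ring -0.148 and -0.0531. The 3 immunoproteasome subunits had a median of 0.104. The regulatory base ATPases, which unfold the substrate, had -0.0638 and -0.0161. Psmd13, a lid subunit, stood at 10.39, 10.27, 10.60 and 10.35 with vehicle and 10.22, 10.26 and 10.26 with celastrol, a difference of -0.16, and -0.093 without vehicle replicate 3. Its groups did not overlap, though vehicle replicate 2 lay just above 2 of the celastrol arrays. Psme3, the nuclear activator PA28 gamma, had -0.13 and -0.096. Psmg1, an assembly chaperone of the core, stood at 9.01, 9.14, 9.67 and 9.04 against 8.75, 8.96 and 9.05. The high value of vehicle replicate 3 set most of its difference, which was -0.29 with that array and -0.14 without it. The mean over the list was 10.34, 10.31, 10.59 and 10.29 on vehicle arrays 1 to 4 and 10.26, 10.27 and 10.31 on celastrol arrays 1 to 3. The highest mean among the other 22 arrays of the study was 10.37, against 10.59 on vehicle replicate 3.

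Genes of mitochondrial respiration showed the same dependence on that array. Of 74 genes of the respiratory chain and ATP synthase, 71 were below 0 with all arrays and 40 without vehicle replicate 3 (54.1%, against 52.0% of all genes), and the median went from -0.0839 to -0.00665. At an unadjusted p under 0.05 the lower members were 9 with all arrays (12.2%, against 6.22% of all genes) and 1 without it (1.35%, against 4.1%). The list mean was 11.24, 11.22, 11.61 and 11.2 with vehicle and 11.16, 11.24 and 11.27 with celastrol, so the other 3 vehicle arrays lay within the celastrol range. By complex, the medians with all arrays were -0.122 for complex I, -0.0624 for II, -0.112 for III, -0.0841 for IV with cytochrome c and -0.0726 for ATP synthase. Without vehicle replicate 3 they lay between -0.0147 and 0.021. Ndufv1, the NADH-binding subunit of complex I, stood at 11.28, 11.26, 11.38 and 11.25 against 11.15, 11.11 and 11.23. It did not overlap, and its difference was -0.13 and, without vehicle replicate 3, -0.10. Ndufs1, the iron-sulphur subunit beside it, had -0.15 and -0.10, with overlap.

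The shares of citric acid cycle and protein import genes below 0 were near or under that of bright genes once vehicle replicate 3 was left out. Of 16 citric acid cycle genes 14 were below 0, and 12 without vehicle replicate 3 (75.0%), with medians of -0.0458 and -0.0396. Of 28 import genes 27 were below 0, and 19 without it (67.9%), with medians of -0.0878 and -0.0202. The highest tercile by level, with 77.7% below 0 and a median of -0.0357 without that array, holds 14 of the 16 and 19 of the 28 genes. Timm17a, a channel subunit of the inner membrane translocase, stood at 11.56, 11.51, 11.83 and 11.45 with vehicle and 11.32, 11.39 and 11.41 with celastrol, with no overlap. Its difference was -0.22 ± 0.064 (SE) (adjusted p = 0.182) and -0.13 without vehicle replicate 3. It and Tomm22 were the 2 of 28 import genes that were lower with no overlap (4.29% of all genes, and 7.56% with 3 vehicle arrays).

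The medians of both lists of ribosomal protein genes moved towards 0 without vehicle replicate 3. Of 54 genes of the cytosolic ribosome 47 were below 0 with all arrays and 23 without vehicle replicate 3, with medians of -0.0934 and 0.00545. Rps15 of the small subunit had -0.099 and -0.065, and Rpl29 of the large subunit, which was higher, 0.13 and 0.099. Many ribosomal protein genes have processed copies in the genome, so their probe sets may take up signal of those copies. Of 77 genes of the mitochondrial ribosome, which translates the respiratory chain subunits encoded in mitochondria, 64 were below 0. Of these, 17 were at an unadjusted p under 0.05 (22.1% of the list, against 6.22% of all genes). When that array was left out these counts were 45 (58.4%, against 52.0% of all genes) and 7 (9.09%, against 4.1%), and the median went from -0.0844 to -0.0158. Mrps21 had the largest difference of the genes named here from these lists. Mrps21 stood at 11.63, 11.67, 11.84 and 11.64 on vehicle arrays 1 to 4 and at 11.20, 11.01 and 11.53 on celastrol arrays 1 to 3. All celastrol arrays were lower, over a wide range, and the difference was -0.44 ± 0.107 (SE), 1.36-fold lower (adjusted p = 0.156), and -0.40 without vehicle replicate 3 (adjusted p = 0.303). Mrpl1 had -0.23 and -0.18, with no overlap.

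**Figure D2:**
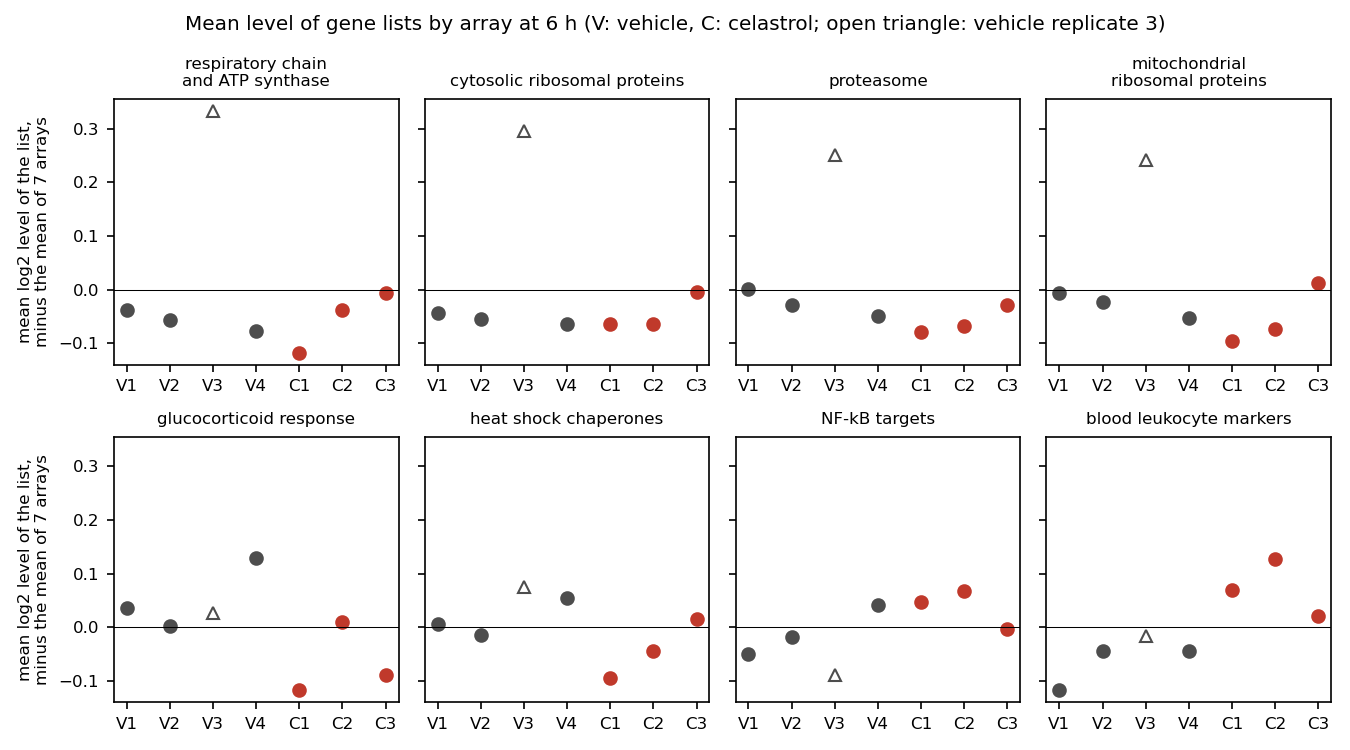
Mean log2 level of the genes of 8 lists on each array at 6 h, as the difference from the mean of the 7 arrays (vertical axis), for vehicle arrays V1 to V4 (dark) and celastrol arrays C1 to C3 (red). Vehicle replicate 3 (open triangle) stands far above the other 6 arrays for the upper 4 lists and within or near their range for the lower 4.

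Heat shock genes as a list did not lie above 0 with celastrol at 6 h. Of 24 measured heat shock genes, 20 were below 0 with all vehicle arrays (83.3%, against 47.2% of all genes), and 20 without vehicle replicate 3 (against 52.0%), with medians of -0.0798 and -0.0406. The highest tercile by level holds 18 of the 24, and the list median without that array was close to the -0.0357 of that tercile. At an unadjusted p under 0.05, 6 were lower with all arrays (25.0%, against 6.22% of all genes) and 2 without vehicle replicate 3 (8.33%, against 4.1%), and 0 were higher in either. Hspa1a stood at 9.30, 9.16, 9.14 and 9.46 with vehicle and at 9.10, 9.05 and 9.26 with celastrol. The groups overlapped, and its difference was -0.13 ± 0.071 (SE) (adjusted p = 0.387) and -0.17 without vehicle replicate 3. The upper end of the 95% interval of Hspa1a with all arrays was 0.017. Its near-identical copy Hspa1b was not analysed here, and the probe set of Hspa1a may take up its signal. Chordc1, whose window above holds 5 matches, stood at 10.22, 10.19, 10.16 and 10.13 against 10.02, 9.85 and 10.004. It did not overlap, with a difference of -0.22 ± 0.059 (SE) (adjusted p = 0.173) and -0.22 without vehicle replicate 3. Of the 12 regulators and cochaperones 11 were below 0, and of the 12 inducible chaperones 9. The members lower at an unadjusted p under 0.05 were 6 and 0 of these with all arrays and 1 and 1 without vehicle replicate 3. Cacybp, a calcyclin-binding cochaperone, had -0.16 and -0.11, and Ptges3, the Hsp90 cochaperone p23, -0.12 and -0.079. The list mean was 10.89, 10.87, 10.96 and 10.94 with vehicle and 10.79, 10.84 and 10.9 with celastrol, so the groups overlapped. With the SD over genes of each array as a covariate, the median of the list was -0.0113.

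Stress pathways next to it gave small medians. Of 30 genes of the unfolded protein response, 19 were below 0, with medians of -0.0341 and, without vehicle replicate 3, -0.0255. The member at an unadjusted p under 0.05 was Trib3, a pseudokinase induced by ATF4 and CHOP. Trib3 stood at 7.68, 7.60, 7.69 and 7.80 against 7.96, 7.94 and 7.89, higher on every celastrol array, with a difference of 0.24 ± 0.084 (SE) (adjusted p = 0.228) and 0.24 without vehicle replicate 3. Ddit3, which encodes CHOP itself, stood at 8.61, 8.61, 8.59 and 8.57 against 8.62, 8.74 and 8.84. Its lowest celastrol array lay barely above the highest vehicle array, and the difference was 0.14 ± 0.075 (SE) (adjusted p = 0.378). Of 25 NRF2 antioxidant genes, 18 were below 0, and 0 were lower and 0 higher at an unadjusted p under 0.05, with a median of -0.0308. Nfe2l2, which encodes NRF2, had -0.093, and Hmox1, its heme oxygenase target, -0.12 and -0.056 without vehicle replicate 3. Prdx1, a peroxiredoxin, had -0.21 with vehicle replicate 3 and -0.078 without it.

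Genes induced by glucocorticoids were lower as a list, and vehicle replicate 3 did not alter this. Of 23 measured members, 21 were below 0 with all arrays (91.3%, against 47.2% of all genes) and 22 without vehicle replicate 3 (95.7%, against 52.0%), with medians of -0.0835 and -0.0845. At an unadjusted p under 0.05, 6 were lower in each fit (26.1%, against 6.22% and 4.1% of all genes) and 0 higher. The highest tercile by level holds 12 of the 23, and with the SD over genes as a covariate the list median was -0.12. The list mean was 9.688, 9.654, 9.677 and 9.78 on vehicle arrays 1 to 4 and 9.534, 9.661 and 9.563 on celastrol arrays 1 to 3. Celastrol replicate 2 lay within the vehicle range and the other 2 below it. Fkbp5, a cochaperone that restrains the glucocorticoid receptor and is induced by it, stood at 9.18, 9.21, 9.21 and 9.20 against 8.90, 8.97 and 9.11. The vehicle arrays lay close together and all celastrol arrays were lower, with a difference of -0.21 ± 0.096 (SE) (adjusted p = 0.318) and -0.21 without vehicle replicate 3. Sgk1, shown above with its promoter, stood at 10.54, 10.24, 10.50 and 10.52 against 9.98, 10.40 and 9.88. Vehicle replicate 2 and celastrol replicate 2 crossed, and the difference was -0.36 ± 0.12 (SE) (adjusted p = 0.213) and -0.34. Errfi1, an inhibitor of EGF receptor signalling, had -0.21 in both fits and no overlap. Ddit4, an inhibitor of mTOR complex 1, had -0.23 and -0.20. The difference of these genes at 6 h minus that at the later times was not called (adjusted p = 0.512 for Sgk1, 0.615 for Fkbp5).

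Most activity-dependent genes lay above 0 and most clock genes below it. Of 24 immediate early and other activity genes, 18 were above 0, against 52.8% of all genes, and 16 without vehicle replicate 3, against 48.0%. The medians were 0.0587 and 0.0205. At an unadjusted p under 0.05, only Npas4 was higher with all arrays (4.17%, against 8.56% of all genes). Without vehicle replicate 3, 2 members were higher at that limit (8.33%, against 5.83%). Npas4, a transcription factor induced by neuronal calcium entry, stood at 8.03, 8.05, 7.77 and 8.21 against 8.25, 8.26 and 8.37. All celastrol arrays were higher, with a difference of 0.28 ± 0.078 (SE) (adjusted p = 0.182) and 0.20 without vehicle replicate 3. Fos, the classic marker of recent activity, stood at 7.41, 7.09, 7.29 and 7.46 against 7.20, 7.56 and 7.70, with overlap and a difference of 0.17 ± 0.137 (SE). Of 18 clock genes, 15 were below 0 in each fit (83.3%), with medians of -0.0265 and -0.0475. Over all genes the shares were 47.2% and, without vehicle replicate 3, 52.0%. The highest tercile by level, with 65.2% and 77.7% below 0, holds 14 of the 18. Cry1, a repressor of the clock, had -0.16 and -0.12. Per3 and Nr1d1, which are repressors too, were higher, at 0.11 and 0.15 with all arrays and 0.066 and 0.068 without vehicle replicate 3. That array was the lowest of the 7 for both, at 9.53 and 11.49.

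**Figure D3:**
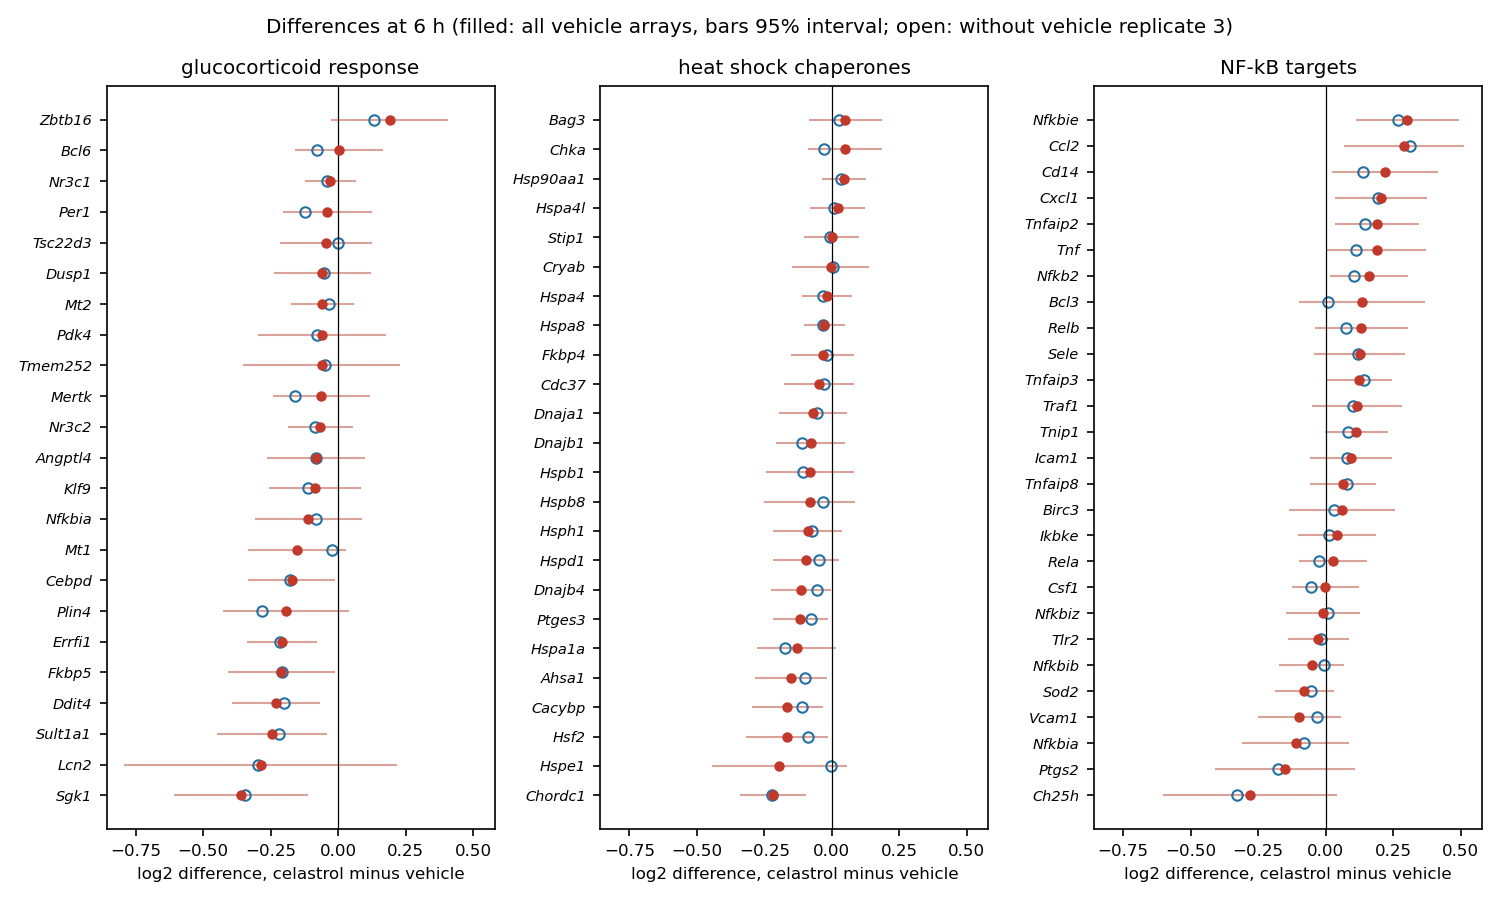
Log2 difference at 6 h, celastrol minus vehicle (horizontal axis), of every measured gene of the glucocorticoid, heat shock and NF-kB lists, with 95% intervals from limma (filled points and bars) and the difference without vehicle replicate 3 (open points). Most points of the first 2 lists lie below 0, and 18 of the 27 NF-kB genes lie above it.

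Inflammatory genes leaned higher, and few of them were bright on the arrays. Of 27 NF-kB targets, 18 were above 0 in each fit, with medians of 0.0934 and, without vehicle replicate 3, 0.0748. At an unadjusted p under 0.05, 8 were higher (29.6%, against 8.56% of all genes), and 4 without that array (14.8%, against 5.83%). The lowest tercile by level, where 76.8% of genes lay above 0 with all arrays, holds 12 of the 27. Only 3 of the 27 belong to the highest tercile of genes by level, and the median of the list was -0.000626 when the lowest tercile of genes by level was left out. Nfkbie, an inhibitor of NF-kB, stood at 7.22, 7.10, 7.04 and 7.23 against 7.49, 7.59 and 7.27. It did not overlap, with a difference of 0.30 ± 0.092 (SE) (adjusted p = 0.184). Ccl2, a chemokine that attracts monocytes, stood at 6.97, 7.10, 7.13 and 7.03 against 7.44, 7.42 and 7.19. It did not overlap either, but its difference of 0.29 ± 0.108 (SE) turned to -0.0112 with the SD over genes as a covariate. Nfkbia, the main inhibitor and a sensitive target of NF-kB, stood at 9.44, 9.36, 9.55 and 9.49 against 9.35, 9.51 and 9.19, with overlap and a difference of -0.11.

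In the interleukin-1 family 12 of 20 genes were above 0, with medians of 0.0595 and 0.0285. The median was -0.14 when the lowest tercile of genes by level was left out and 0.00794 without celastrol replicate 2. At an unadjusted p under 0.05, 3 of the 20 were higher and 5 lower, against 8.56% and 6.22% of all genes. The lowest tercile by level holds 12 of the 20, so the median of -0.14 rests on the others alone. In that tercile 76.8% of genes lay above 0 with all arrays. At the same limit 16.9% of its genes were higher and 1.44% lower. Il1b, the secreted cytokine, stood at 6.41, 6.65, 6.50 and 6.50 against 6.96, 6.77 and 6.81. All celastrol arrays were higher, with a difference of 0.33 ± 0.108 (SE) (adjusted p = 0.201) and 0.33 without vehicle replicate 3. Il1r2, a decoy receptor that binds the cytokine without signalling, stood at 6.44, 6.64, 6.62 and 6.63 against 6.93, 6.97 and 6.86, also with no overlap. Its difference was 0.34 ± 0.088 (SE) (adjusted p = 0.168), and 0.35 without vehicle replicate 3. Myd88, the adaptor that passes on the signal of the receptor, stood at 8.34, 8.36, 8.46 and 8.51 against 8.14, 8.33 and 8.24, lower on every celastrol array by a mean of -0.18 (adjusted p = 0.246). Il1r1, the signalling receptor, was not analysed here.

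Of 23 acute-phase and STAT3 target genes, 13 were above 0 with all arrays and 10 without vehicle replicate 3, so the list had no common direction. Serpina3n, a secreted protease inhibitor of reactive glia, stood at 11.10, 11.12, 11.24 and 11.22 against 10.88, 10.94 and 11.04. It was lower on every celastrol array, with a difference of -0.22 ± 0.059 (SE) (adjusted p = 0.173) and -0.19 without vehicle replicate 3. Lcn2, lipocalin 2, which withholds iron from bacteria, stood at 6.86, 7.35, 7.23 and 7.62 against 7.14, 7.14 and 6.66, with overlap and a difference of -0.29 ± 0.244 (SE) (adjusted p = 0.58). Pim1, a kinase induced by cytokines, had 0.18 and 0.13. Of 25 interferon response genes, 17 were above 0 (68.0%, against 52.8% of all genes) and 19 without vehicle replicate 3 (76.0%, against 48.0%). The medians of the list were 0.0691 and 0.0783. At an unadjusted p under 0.05, 1 was higher with all arrays (4.0%, against 8.56% of all genes). The lowest tercile by level, where 76.8% of genes lay above 0 with all arrays, holds 10 of the 25. With the SD over genes as a covariate the interferon median was -0.0338. Bst2, the antiviral protein tetherin, stood at 7.93, 8.12, 8.02 and 8.11 against 8.42, 8.30 and 8.19, with no overlap and a difference of 0.26 ± 0.083 (SE) (adjusted p = 0.201).

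Genes of leptin receptor signalling showed a lower receptor and mixed inhibitors. Lepr stood at 7.84, 7.97, 8.16 and 7.94 on vehicle arrays 1 to 4 and at 7.70, 7.67 and 7.82 on celastrol arrays 1 to 3. The lowest vehicle array lay just above the highest celastrol array, and vehicle replicate 3 was the highest of all. The difference was -0.25 ± 0.096 (SE) (adjusted p = 0.249) and -0.19 without vehicle replicate 3 (adjusted p = 0.525). The probe set does not tell the receptor's forms apart in the sources used here. Ptpn2, a phosphatase that acts on the JAK and STAT proteins, stood at 8.75, 8.79, 8.98 and 8.74 against 8.55, 8.54 and 8.61, with no overlap and a difference of -0.25, and -0.19 without vehicle replicate 3. Ptpn1, the phosphatase that removes phosphate from JAK2, had -0.10 in both fits. Socs1 and Socs3, which encode feedback inhibitors of cytokine receptors, stood above 0. Socs1 stood at 8.25, 8.08, 8.26 and 8.10 against 8.44, 8.48 and 8.25, a difference of 0.22 ± 0.07 (SE) (adjusted p = 0.199), with a narrow overlap through vehicle replicate 3. Socs3 stood at 7.98, 8.08, 7.75 and 8.06 against 8.16, 8.20 and 8.09, a difference of 0.18 ± 0.09 (SE) (adjusted p = 0.355) and 0.11 without vehicle replicate 3. Of the 20 genes of the list 11 were below 0 in each fit, with medians of -0.0127 and -0.0403.

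The main peptides of the feeding circuit overlapped between the groups. Npy, the main appetite-stimulating peptide of the arcuate nucleus, stood at 11.49, 11.35, 11.95 and 11.37 against 11.68, 11.15 and 11.39. Vehicle replicate 3 was the highest, and the difference of -0.13 ± 0.121 (SE) became 0.0026 without it. Cartpt, which encodes a peptide that lowers food intake, stood at 10.11, 10.30, 10.39 and 10.14 against 10.35, 10.05 and 10.35, with overlap and a difference of 0.016 ± 0.08 (SE). Pomc, the precursor of alpha-MSH in the arcuate nucleus and of ACTH in the pituitary, stood at 8.06, 10.84, 8.32 and 10.43 against 8.25, 9.68 and 8.78. It was high on vehicle arrays 2 and 4, as Prl was, and its difference was -0.51 ± 0.514 (SE) (adjusted p = 0.643). The part of pituitary RNA in the Pomc values was not tested. Hcrtr2, the receptor for orexin that promotes wakefulness, stood at 8.59, 8.64, 8.78 and 8.50 against 8.35, 8.27 and 8.47. It was lower on every celastrol array, with a difference of -0.26 ± 0.08 (SE) (adjusted p = 0.185) and -0.21 without vehicle replicate 3. Npy2r, the inhibitory receptor on Npy neurons, had -0.21 with overlap, and Galp, galanin-like peptide, 0.20 with none. Of 29 genes of the circuit, 19 were below 0, and 14 without vehicle replicate 3. Of 26 other hypothalamic peptide genes, 15 were above 0, among them Sst, somatostatin, at 0.15 with overlap. Agrp was not analysed here.

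Lipid, retinoid and drug-metabolising genes had single members that stood out rather than a shift of the list. Of 23 retinoid genes, 13 were below 0 with all arrays and 10 without vehicle replicate 3, with medians of -0.0198 and 0.00762, so Retsat was not accompanied by its list. Of 25 genes of sterol and fatty acid synthesis, 13 were above 0, with a median of 0.00195. Sc5d, a desaturase late in cholesterol synthesis, had -0.098, and Fads1, a fatty acid desaturase, 0.11. Of 9 Cyp2d genes, 8 were above 0 (88.9%, against 52.8% of all genes), with a median of 0.0687. The lowest tercile by level, with 76.8% above 0 and a median of 0.0816, holds 7 of the 9. With the SD over genes as a covariate the median of the family was -0.0522. Cyp2d11 stood at 5.78, 6.43, 6.23 and 5.88 against 6.73, 6.66 and 6.06, with overlap and a difference of 0.40 ± 0.185 (SE) (adjusted p = 0.319). Cyp2d22, a member of the same family, had 0.069 and 0.033. The family members are similar in sequence, and a probe set of 1 member may take up signal of another.

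**Figure D4:**
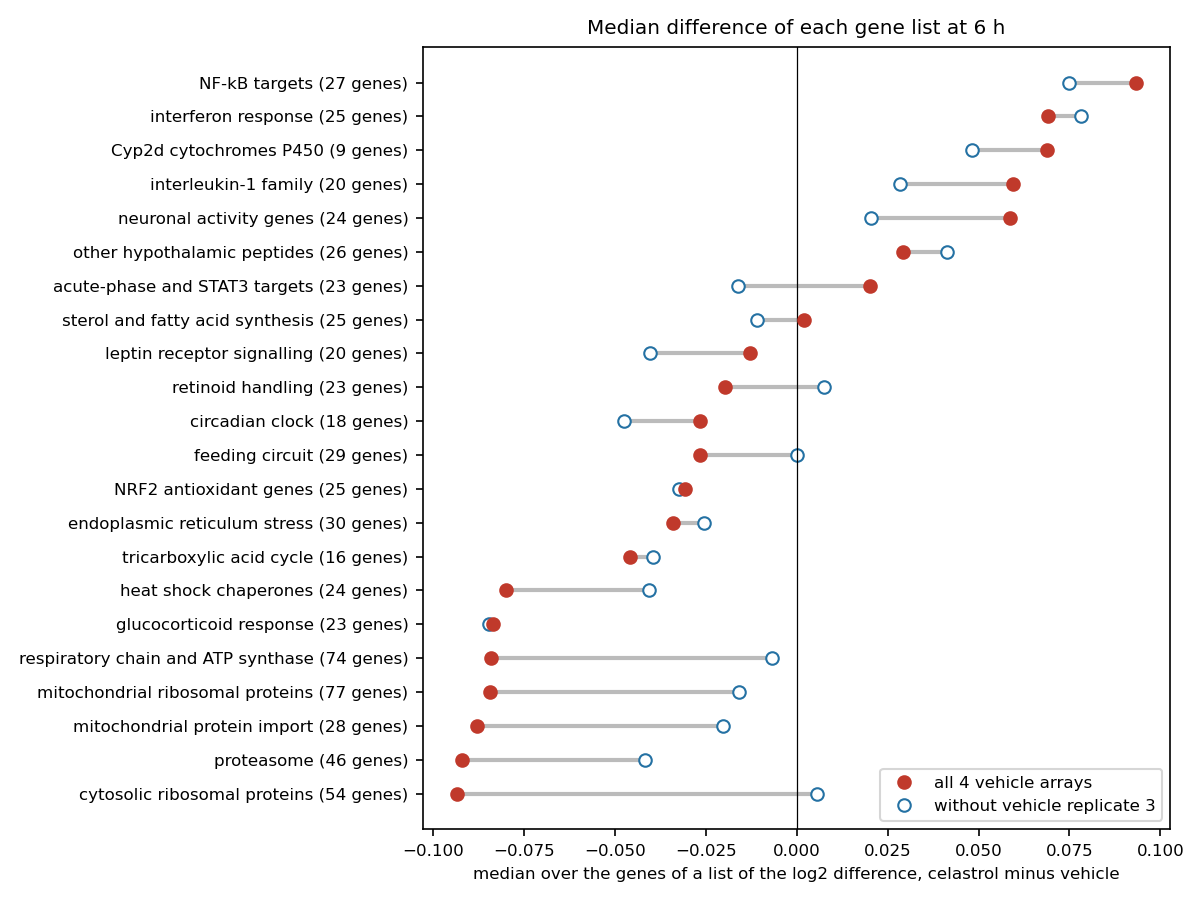
Median log2 difference at 6 h, celastrol minus vehicle (horizontal axis), over the measured genes of each of 22 lists, with all 4 vehicle arrays (filled) and without vehicle replicate 3 (open). The lowest 5 filled points are the cytosolic ribosome, the proteasome, mitochondrial import, the mitochondrial ribosome and the respiratory chain, each of which moves towards 0 without that array, while the glucocorticoid list stays at -0.0835 and -0.0845.

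Markers of the cell types in the tissue had small medians, with blood leukocyte genes farthest above 0 among marker lists of more than 2 genes. Of 14 leukocyte markers, 12 were above 0 in each fit, with medians of 0.126 and 0.146. With all arrays 4 were higher at an unadjusted p under 0.05 (28.6%, against 8.56% of all genes and 16.9% of the lowest tercile by level). Their list mean was 6.387, 6.46, 6.487 and 6.46 with vehicle and 6.572, 6.631 and 6.524 with celastrol, with no overlap. Ccr2, the receptor of Ccl2 on monocytes, stood at 5.18, 5.07, 5.08 and 5.28 against 5.49, 5.44 and 5.49, a difference of 0.32 ± 0.071 (SE) (adjusted p = 0.156). Cd3e, a subunit of the T cell receptor complex, stood at 7.68, 7.65, 7.65 and 7.79 against 7.83, 8.02 and 7.91, a difference of 0.23 ± 0.075 (SE). The lowest tercile of genes by level, where 76.8% lay above 0, holds 13 of the 14, and with the SD over genes as a covariate the list median was -0.0119. The part of leukocytes in the inflammatory values was not tested. Other marker lists follow with the median over all arrays and then the median without vehicle replicate 3. Neuron markers had 0.0041 and -0.0256, with 7 and 16 of 17 below 0, and astrocyte markers 0.0143 and -0.0187, both turning sign. Oligodendrocyte markers had -0.0371 and -0.0169, their precursors 0.0276 and -0.0158 and microglia markers -0.0606 and -0.0228. Choroid plexus markers turned from -0.0362 to 0.0634, and mural and fibroblast markers went from 0.0592 to 0.00801. Endothelial markers had -0.0246 and -0.0292, ependymal markers 0.0364 and 0.0761, tanycyte markers 0.047 and 0.0504 and the 2 measured erythroid markers 0.126 and 0.0839. Thalamus markers, of a region that adjoins the hypothalamus, lay farther below 0 without vehicle replicate 3, at -0.0613 and -0.151 with 11 and 12 of 13 below 0, and striatum markers had -0.0278 and -0.0361. Pituitary markers had -0.0711 and -0.18, but did not share a direction. Of the 10, 4 were above 0 with all arrays and 3 without vehicle replicate 3. At an unadjusted p under 0.05, 2 were higher and 0 lower in each fit. Of all genes 8.56% were higher at that limit, and 5.83% without vehicle replicate 3. The marker differences with all arrays ran from -1.3 to 0.873, the lowest and highest of all genes. The mean of the 10 pituitary markers was 7.105, 8.813, 7.237 and 8.72 with vehicle and 7.628, 8.025 and 8.122 with celastrol.

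The sign of a difference went with the brightness of the gene. In the lowest tercile of genes by level 4785 of 6234 were above 0, with a median of 0.0816, and in the highest tercile 2168, with a median of -0.0292. With genes in 10 deciles by level, the medians were highest in deciles 2 and 3, 0.0973 and 0.1, and lowest in decile 7, -0.0407. With 3 vehicle arrays these values were 0.0862, 0.0908 and -0.0374. The same deciles had medians of 0.08, 0.0927 and -0.0248 at 1 day and of -0.0358, -0.0386 and 0.0163 at 4 days, each against the vehicle arrays of its own time. Sensory receptor genes, mostly olfactory and vomeronasal receptors that are near background in this tissue, followed the dim genes. Of 1229 such genes 910 were above 0, with a median of 0.0709. At an unadjusted p under 0.05, 174 were higher (14.2%, against 8.56% of all genes and 16.9% of the lowest tercile). At the same limit 13 were lower (1.06%, against 6.22% and 1.44%). With the SD over genes as a covariate their median was -0.000814. Olfr5, an olfactory receptor, stood at 6.67, 6.94, 6.79 and 7.06 against 7.46, 7.32 and 7.22, a difference of 0.47 ± 0.088 (SE), and Olfr1115 at 5.53, 5.63, 5.45 and 5.45 against 5.75, 5.91 and 5.81, a difference of 0.31 ± 0.06 (SE) (both adjusted p = 0.117). With the SD covariate the medians of the lowest and highest tercile were 0.00218 and 0.00888. The SD over genes is itself a measure of how far bright and dim genes lie apart, and it separates the groups at 6 h. That a difference tied to level shrinks with this covariate is therefore in part built in. Of the 22 pathway lists, 11 then had a median closer to 0 with the same sign, 8 turned sign and 3 lay farther from 0, the glucocorticoid list among the last. The part of this dependence on level in the list medians was tested no further.

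**Figure D5:**
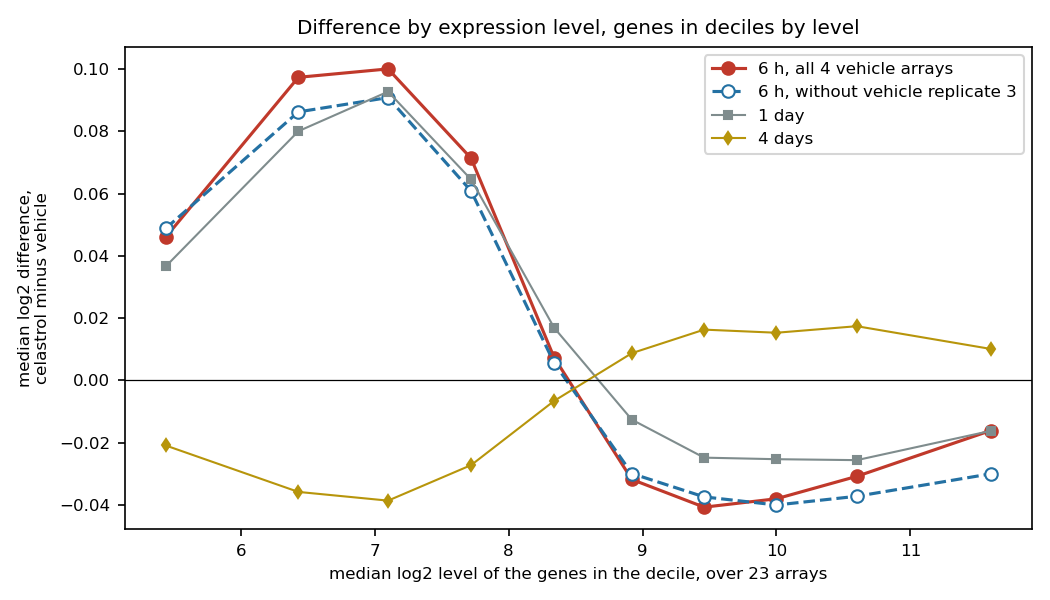
Median log2 difference, celastrol minus vehicle (vertical axis), of genes in deciles by mean log2 level over the 23 arrays (horizontal axis), at 6 h with all arrays and without vehicle replicate 3, at 1 day and at 4 days. At 6 h and 1 day dim genes lie above 0 and bright genes below it, and at 4 days the order is turned.

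The difference at 6 h was also set against the later times. No gene was called for a celastrol difference at 6 h other than the mean of those at 1 day and 4 days (limma, 0 of 18702 called, 0.0%), with 1441 genes (7.71%) at an unadjusted p under 0.05 and a lowest adjusted p of 0.403. The genes with that lowest p included Retsat, with differences of -0.33 at 6 h, -0.014 at 1 day and 0.13 at 4 days. Serpina3n had -0.22, 0.096 and 0.13. Hhex, a homeobox factor of endothelial and blood precursors, had 0.27, -0.16 and -0.13, and Olfr211 0.33, -0.0049 and -0.15. The glucocorticoid list, lower at 6 h, had a median of 0.144 at 1 day and 0.0105 at 4 days. Its vehicle arrays had a list mean of 9.7 at 6 h, 9.597 at 1 day and 9.69 at 4 days. The celastrol arrays had 9.586, 9.786 and 9.709 at these times. Both groups thus differed between times, and the source of the change in direction was not tested. The respiratory chain list, at -0.0839 at 6 h with all arrays and -0.00665 without vehicle replicate 3, had 0.0167 and 0.022 at the later times.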

How the data were processed

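Total RNA of the hypothalamus of 7 samples, 3 celastrol and 4 vehicle at 6 h, was taken from a study of 23 Affymetrix whole-transcript mouse arrays, grouped by their labels. The authors deposited 1 log2 expression value per probe set and array, and the submitters' processing notes name RMA. Software, version and filters are not stated there. RMA sets the arrays to a common distribution, so a shift shared by most genes would not be seen. The values were used with no further normalization.

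Of 23492 probe sets, 20228 named 1 gene in the platform annotation (20184 under a current symbol, 44 under an older one), 1399 named several and 1865 none. The brightest probe set was taken for the 811 genes with more than 1, giving 18702 genes. No filter on level was applied. Of the genes of the lists, 75 were not analysed here for want of such a probe set.

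All 23 arrays entered a model with 6 group means in limma 3.58.1 in R 4.3.3 (lmFit and eBayes, 17 residual and 5.424 prior degrees of freedom). P-values were adjusted by Benjamini-Hochberg over all genes at 0.05. The fit was repeated without vehicle replicate 3 (16 and 4.44 degrees of freedom). P-values measure the spread between the labelled biological replicates. The groups at 1 day and 4 days add to the estimate of spread and give the test between times. Gene lists are described by counts and medians and carry no test. The median and the SD over genes of each array were compared between groups by exact permutation, 2-sided, with adjustment over these 2 tests.

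Named genes are the 15 of smallest p in each direction among genes in the upper part of the level range (above 7.63), the 8 of smallest p without vehicle replicate 3, 3 members of each pathway list and 2 of each marker list by p, a fixed set of stress, feeding and inflammation genes, and the 5 of smallest p between times. Not all of the 150 genes this gives are named. The comparison, the lists and the rule were chosen with earlier results of these data known.

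The procedure was tested on simulated data with known differences. The alternatives tried were leaving out each array, only the arrays at 6 h, the replicate number as a block, a robust variance trend, quantile normalization, centred arrays, filters on dim genes, array weights, the SD over genes or the pituitary mean as a covariate, every probe set, and the mean of a gene's probe sets.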

Additional observations from a re-analysis of the deposited data

Results flagged for a closer look

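Among the 4 vehicle arrays at 6 h, 6 of the 87 genes named (6.9%) and 6 of 38 gene list means (15.8%) had a lowest or highest array whose gap to the nearest other array, as a share of the range of the 4, exceeded Dixon's 95% limit. Chance alone gives such a gap in about 1 of 20 groups, and 8.64% of all genes had one. Vehicle replicate 3 was the lowest of the 4 for Per3 at 9.526, for Pim1 at 7.922 and for Fads1 at 12.31. It was the highest for the means of the respiratory chain list at 11.61, of the cytosolic ribosome at 11.73, of the mitochondrial ribosome at 9.828 and of the other hypothalamic peptides at 9.835. Vehicle replicate 1 was the lowest for Il1r2 at 6.444, for the feeding circuit mean at 9.663 and for the tanycyte marker mean at 8.721. Vehicle replicate 2 was the lowest for Sgk1 at 10.24 and for Npy2r at 8.227. The differences without vehicle replicate 3 of Per3, Pim1 and Fads1 were 0.066, 0.13 and 0.057, against 0.11, 0.18 and 0.11 with it.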

How the results depend on the processing

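With each array left out in turn 0 to 2 genes were called, and under every other alternative run 0. The limits are the 3 celastrol arrays, vehicle replicate 3 and the dependence of differences on level. The counts of genes at an unadjusted p under 0.05 ranged, with each array left out in turn, from 848 to 2014 higher and from 629 to 1518 lower, in the fit without vehicle replicate 3 from 639 to 1576 and from 404 to 1210, and for the contrast between times from 468 to 1151 and from 414 to 986. Genes with no overlap ranged from 1413 to 2740 higher and from 1092 to 2291 lower, against 1116 and 803 with all arrays. Leaving out an array cannot lower a count of no overlap, so these rises are built in. With the SD over genes as a covariate, the 3 pairs of counts (higher, then lower) were 453 and 364, 507 and 400, and 414 and 391. When the lowest tercile of genes by level was dropped the higher counts were 602, 377 and 301, and 404 with no overlap, and without genes below the median level 184, 111 and 103, and 141 with no overlap, where fewer genes are tested. The lower count was 596 with only the arrays at 6 h. In the fit without vehicle replicate 3 it was 481 with centred arrays, and the higher count was 696 after quantile normalization. The cause was not tested. With quantile normalization the medians were -0.00193 for endoplasmic reticulum stress, 0.00154 for NRF2, 0.0364 for NF-kB, -0.0158 for interleukin-1, 0.0107 for interferon, 0.00561 for striatum, 0.0424 for leukocytes and 0.0112 for sensory receptors. With the SD covariate they were -0.0113 for heat shock, 0.00603 for endoplasmic reticulum stress, 0.00587 for NF-kB, -0.0307 for interleukin-1, -0.0338 for interferon, 0.0599 for sterol synthesis, -0.0522 for Cyp2d, 0.0428 for endothelium, -0.0119 for leukocytes and -0.000814 for sensory receptors, and Ccl2 turned to -0.0112. Without the lowest tercile by level they were -0.000626 for NF-kB, -0.14 for interleukin-1 and 0.193 for sensory receptors, and without genes below the median level -0.0655, -0.14 for interleukin-1 and 0.00318 for interferon. With each array left out they ranged from -0.0427 to 0.00787 for endoplasmic reticulum stress, -0.0605 to -0.0188 for NRF2, 0.00794 to 0.0813 for interleukin-1, -0.0228 to 0.059 for sterol synthesis, -0.0403 to 0.0296 for leptin signalling, -0.0885 to 0.034 for endothelium, -0.0547 to 0.0634 for choroid plexus, -0.0361 to 0.000165 for striatum and 0.0849 to 0.202 for leukocytes. Npy ranged from -0.269 to 0.00259 and Cartpt from -0.0342 to 0.117. The difference in SD over genes ranged from -0.055 to -0.0315, where fewer arrays cannot reach a p of 0.05. The other 625 of 659 list medians under an alternative moved by less than the replicate spread, which includes vehicle replicate 3. That array widens the spread: the vehicle SD of the respiratory chain mean was 0.194 with it and 0.0212 without it. The 625 thus include moves from -0.0839 to -0.00665 (respiratory chain) and from -0.0934 to 0.00545 (cytosolic ribosome) when that array was left out. They do not show that these lists are stable to its removal. Of the 87 genes named, 84 kept their direction throughout. Many of them were named for a small p on these same arrays. A kept direction is in part set by that choice and does not show that their differences are stable. Same-numbered arrays correlated at -0.00922, 0.124 and 0.188 in their deviations, and differently numbered arrays at -0.171 to 0.0958. With so few arrays these values cannot settle whether the replicate numbers pair them. With the replicate number as a block 0 genes were called, with 1767 higher and 1190 lower at an unadjusted p under 0.05. The alternatives for the fit without vehicle replicate 3, for the contrast between times and for overlap were chosen after seeing the data.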
